A study of Homo sapiens with 12 samples.

Results

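Lactate at neutral pH was set against acid medium without added lactate in KKU-213A, an established human cholangiocarcinoma (bile duct cancer) cell line. The genes compared are the 1173 that the authors list as different from control in both of these treatments. They make up 38.0% of the 3087 genes of the lactosis table and 68.2% of the 1721 genes of the acidosis table, and 5308 genes are listed in at least 1 of the study's 3 tables. Both listings rest on the same control libraries, so a gene's presence here is the rule and not a result. Genes listed for only 1 of the treatments were not analysed here.

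The study holds 12 RNA-seq libraries of this line, 3 in each of 4 media. Lactosis cells grew at pH 7.4 with L-lactate at a final 25 mM, and acidosis cells grew at pH 6.5 with HEPES buffer at a final 25 mM and no added lactate. Both were kept in their medium for 5 passages or more, on a base of low-glucose DMEM with serum and antibiotics that the control cells shared. Lactic acidosis cells, used here only for side-by-side values, had both additions at pH 6.7. Lactosis and acidosis therefore differ in lactate, in pH and in buffer at once, and these cannot be told apart. The labels do not say whether the 3 libraries of a medium came from separate cultures, so p-values measure the spread between these libraries, which may be technical, in 1 cell line.

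Lactate and protons leave glycolytic tumour cells together through monocarboxylate transporters. Lactate itself can be taken up and oxidised, can enter the pool of pyruvate, and is sensed at a cell surface receptor. Low external pH slows glycolysis, lowers the pH inside the cell and reaches acid-sensing channels and receptors. The terms lactosis and acidosis separate these 2 components of the tumour's acid, lactate-rich surroundings.

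Every value below is the authors' length-scaled normalized expression value of a gene in 1 library, on a scale that the sources do not name. Differences are lactosis minus acidosis in mean log2(value + 1), which understates the change of genes with low values. The test was limma's moderated test over the 6 libraries, two-sided, with Benjamini-Hochberg adjustment over all 1173 genes. A gene is called when its adjusted p is under 0.05, and "rose" or "higher" is used only of called genes. Control values were identical in both tables for all shared genes, so the same control libraries stand in both. That does not show that the lactosis and acidosis libraries were scaled alike. Depth is unknown because the files give no library totals.

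The median spread of log2 values over 3 libraries was 0.1 in lactosis, 0.107 in acidosis and 0.252 in the controls. Of 21 biliary and epithelial markers looked for, the lactosis table lists 3. KRT19, a keratin of bile duct epithelium, lay between 2729 and 2876 in the lactosis libraries, against 2799, 4155 and 4419 in control. CD24 was at 275, 271 and 290 in lactosis and 134, 173 and 197 in control. MUC1, near the low end of the scale, was at 0.61, 0.96 and 0.82 in lactosis and 2.3, 2.2 and 1.41 in control. The acidosis table lists none of the 21, so acidosis was not checked by them. In lactosis replicate 2 the summed level of 7 skeletal and cardiac muscle genes was 56.0, against 0.49 and 0.53 in the other lactosis libraries. None of the 44 muscle markers looked for is among the 1173 genes, and without that library 268 genes were called, 199 higher in lactosis and 69 higher in acidosis.

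Lactosis and acidosis left most of their common genes at close levels, and a minority differed. Of 1173 genes, 280 were called (23.9%), 192 of them higher in lactosis (16.4%) and 88 higher in acidosis (7.5%). Only 18 genes were both called and at least 2-fold apart on the log2(value + 1) scale (1.53%), 8 toward lactosis and 10 toward acidosis. The median difference over all genes was 0.05. In all, 1068 genes (91.0%) differed by less than 0.5, and the called genes had a median size of 0.43. All 3 lactosis values lay above all 3 acidosis values in 309 genes (26.3%), and the reverse held in 157 genes (13.4%). The split between the directions depends on how the libraries are scaled. Centring each library on its median log2 value moved the median difference by -0.107 and gave 386 calls, 157 higher in lactosis and 229 higher in acidosis, so 40.7% of calls were toward lactosis in place of 68.6%. Adding the 3 controls to the fit, which then share their wider spread with the treated libraries, left 85 calls, 41 and 44. Without acidosis replicate 2 there were 131 calls, 84 of them toward lactosis, and without lactosis replicate 1 there were 156, 102 of them toward lactosis. Calls toward lactosis numbered 121 without lactosis replicate 3 and 122 without acidosis replicate 3.

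**Figure D1:**
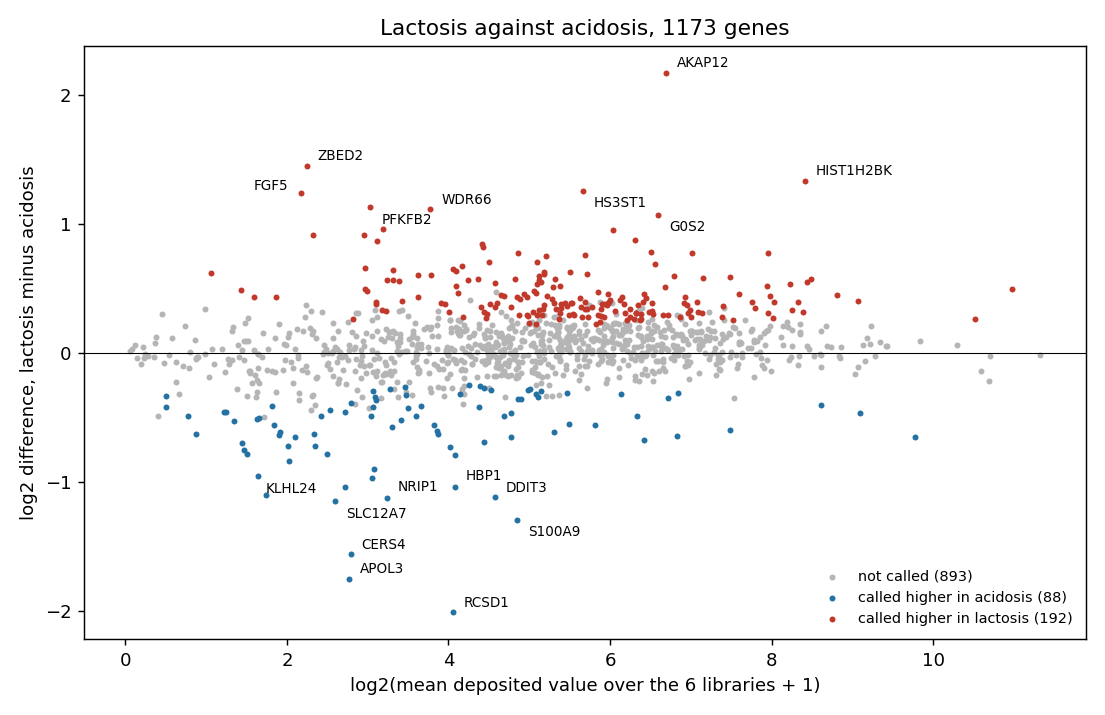
Each point is 1 of the 1173 genes, with the mean level of the 6 libraries as log2(value + 1) on the horizontal axis and the log2 difference, lactosis minus acidosis, on the vertical axis; red and blue points are called by limma. AKAP12 is the topmost point at 2.17 and RCSD1 the lowest at -2.01.

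Most calls toward lactosis were in genes above control, and most calls toward acidosis in genes below control. Of the 738 genes higher than control in both treatments by the authors' deposited tables, 174 were higher in lactosis (23.6%) and 7 in acidosis (0.9%), with a median difference of 0.13. Of the 421 genes lower than control in both, 11 were higher in lactosis (2.6%) and 75 in acidosis (17.8%), with a median of -0.09. In both classes the called genes mostly lay further from control in lactosis than in acidosis. With median-centred libraries, 49 of the genes higher in both and 173 of those lower in both were called higher in acidosis. Without acidosis replicate 2 the counts of 174 and 75 became 73 and 39, and without lactosis replicate 1 they became 91 and 46. The 174 became 109 without lactosis replicate 3 and 110 without acidosis replicate 3, and the fit with controls kept 32 and 37. Under library weights the 75 became 125.

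**Figure D2:**
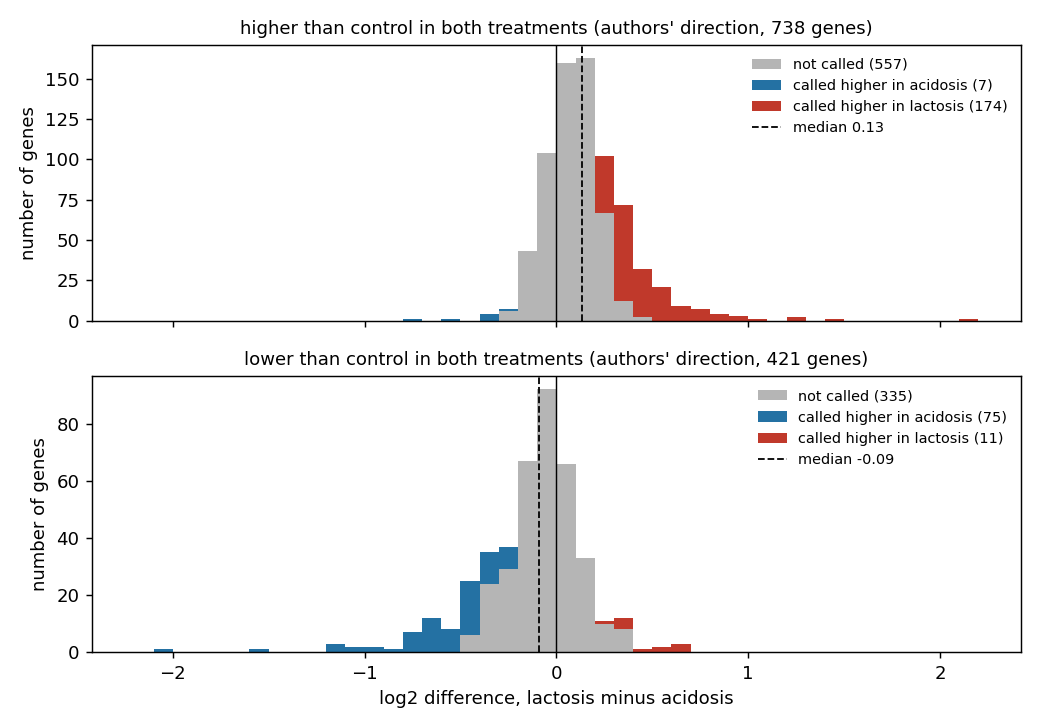
Histograms of the log2 difference, lactosis minus acidosis, for the 738 genes higher than control in both treatments (top) and the 421 lower in both (bottom), with the number of genes on the vertical axis and called genes in colour. The dashed line is the median, 0.13 in the top panel and -0.09 in the bottom panel.

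AKAP12 and HS3ST1 were among the 12 largest differences toward lactosis. AKAP12, a scaffold protein that gathers protein kinase A and other kinases at the membrane (chr6:151239999-151358557, hg38), had 46.9, 32.5 and 31.1 in acidosis and 159, 139.7 and 207 in lactosis. Its lowest lactosis value was above its highest acidosis value, the means were 36.8 ± 8.76 (SD, n = 3) and 169 ± 34.6 (SD, n = 3), and the difference was 2.17 (SE 0.19, limma adjusted p = 0.000276). The control values were 4.78, 16.4 and 22.4, below every acidosis library, and the lactic acidosis values of 454, 493 and 463 were above every lactosis library. HS3ST1, an enzyme that adds sulphate to heparan chains (chr4:11393150-11429765), had 29.2, 29.3 and 28.5 in acidosis and 69.7, 68.9 and 72.8 in lactosis. The groups did not overlap, and the difference was 1.25 (SE 0.065, limma adjusted p = 3.12e-05). PLAUR, the urokinase receptor that focuses plasmin formation at the cell surface, was at 24.1, 26.9 and 28.4 in acidosis and 43.7, 46.99 and 44.8 in lactosis and differed by 0.75 (SE 0.080, limma adjusted p = 0.000905). It was lowest in control, intermediate in acidosis and higher in lactosis, with no overlap between the treatments. PLAUR was among the 2 called members of 7 tested genes of the matrix, mesenchymal and protease list, beside 23.9% of all genes. The median difference of that list was 0.29 against 0.05 for all genes. The uncalled members ran from -0.35 to 0.30, among them PLAU, the urokinase that PLAUR binds, which did not pass the test. PLAU had the lowest difference of the list, -0.35. Toward acidosis, 1 member of the list had an unadjusted p under 0.05. Also 1 was called that way by limma-trend, in median-centred libraries, under library weights and with the replicate block. Toward lactosis the numbers were 4, 4, 2, 4 and 2 in that order.

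Some genes of secreted growth factors were higher in lactosis, while VEGFA, described below, was higher in acidosis (-0.32). FGF5, a fibroblast growth factor (chr4:80266599-80336680), was listed at 0.09, 0.52 and 0.75 in control, 1.91, 1.58 and 1.56 in acidosis and 4.73, 5.59 and 5.66 in lactosis. Every lactosis library was above every acidosis library, and the difference was 1.24 (SE 0.090, limma adjusted p = 0.000125). INHBA, which encodes the subunit of activin A, had 6.3, 5 and 4.21 in acidosis and 9.98, 10.6 and 9.87 in lactosis and differed by 0.87 (SE 0.12, limma adjusted p = 0.0021). In lactic acidosis INHBA stood at 25.03, 21.8 and 22.9, above all lactosis libraries, whereas FGF5 stood at 3.13, 3.79 and 3.24, between the 2 treatments. FOSL1, an AP-1 transcription factor induced by growth factor signalling, was at 247, 245 and 241 in acidosis and 349.8, 334 and 379 in lactosis, with a difference of 0.53 (SE 0.073, limma adjusted p = 0.00203). TGFA, a ligand of the EGF receptor, differed by 0.39 (limma adjusted p = 0.04) and was the called member of 6 tested genes of ERBB ligands, receptors and MAPK feedback, whose other members ran from 0.01 to 0.34. The WNT, NOTCH and BMP list, which holds INHBA, had 1 call in each direction among 6 tested genes, with a median of -0.11. The AP-1 list, which holds FOSL1, had 1 call in each direction among 4 tested genes, with a median of 0.03. Of all genes 16.4% were called higher in lactosis and 7.5% in acidosis, so nothing is read from these counts. Leaving out a library ended the TGFA call for 4 of the 6 libraries, with adjusted p = 0.143 without acidosis replicate 2, 0.122 without lactosis replicate 3, 0.111 without acidosis replicate 3 and 0.0928 without lactosis replicate 1. In the fit with controls, adjusted p was 0.236 for FOSL1 and 0.336 for TGFA, so neither call held there.

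Other leading genes toward lactosis have unrelated known roles. ZBED2, a zinc finger transcription factor, rose from 1.77, 1.61 and 1.21 in acidosis to 4.56, 6.17 and 7.16 in lactosis, a difference of 1.45 (SE 0.15, limma adjusted p = 0.000879). G0S2, an inhibitor of the lipase that starts fat breakdown in lipid droplets, was at 56.1, 63.5 and 65.5 in acidosis and 124, 139 and 128 in lactosis and differed by 1.07 (SE 0.086, limma adjusted p = 0.000209). The G0S2 values of the lactic acidosis libraries, 275, 221 and 253, were higher than all of them. NEXN, an actin-binding protein, was higher in lactosis by 0.91 (limma adjusted p = 0.000179), and LRRC8C, a subunit of volume-regulated anion channels, by 0.92 (limma adjusted p = 0.00439). RPL19P12, named as a pseudogene of a ribosomal protein, differed by 0.96 (limma adjusted p = 0.0015); reads of such copies may belong to their parent gene, and no position was found for it in the annotation.

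**Figure D3:**
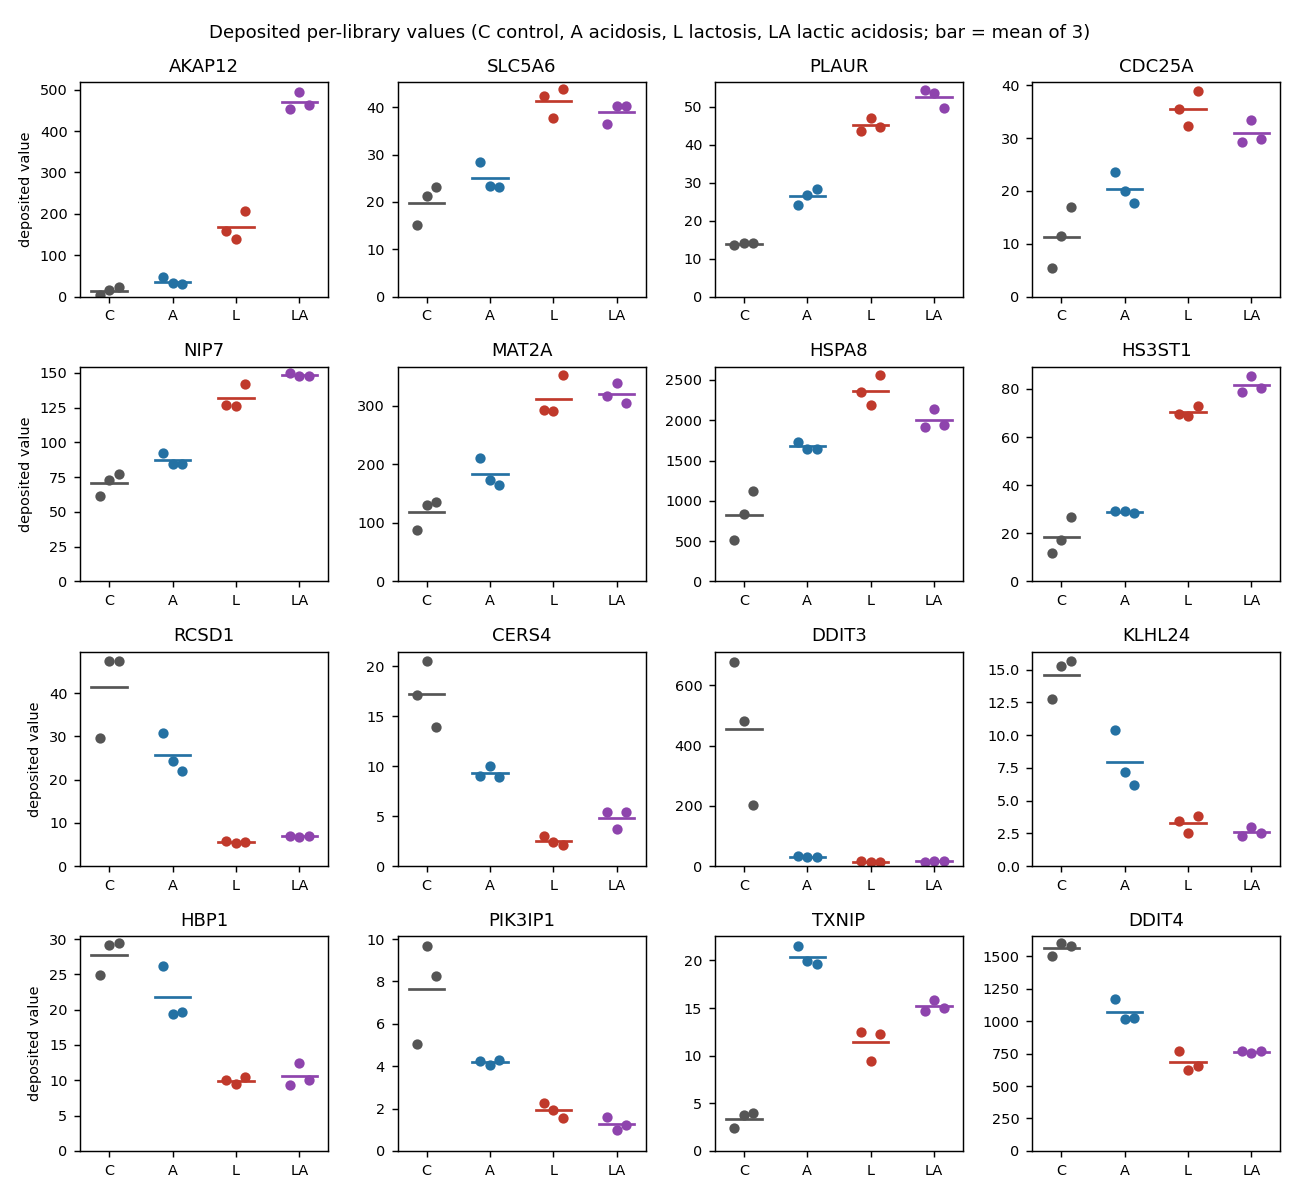
Deposited values of 16 genes in each of the 12 libraries on linear axes that start at 0, with a bar at the mean of 3 libraries. In the upper 2 rows lactosis lies above acidosis and acidosis at or above control; in the lower 2 rows acidosis lies above lactosis, and all these genes except TXNIP have their highest mean in control.

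Some DNA replication genes were higher in lactosis. The DNA replication list had 17 tested members, all higher than control in both treatments by the authors' deposited tables. Of these 17, 6 were higher in lactosis, 1 was higher in acidosis and 10 were not called, with a median difference of 0.15. Among all 738 genes higher than control in both treatments, 23.6% were higher in lactosis and the median was 0.13. The list median is thus near that of its class. CDC25A, the phosphatase that removes the inhibitory phosphates of cyclin-dependent kinases, had 5.46, 11.5 and 16.95 in control, 23.6, 19.9 and 17.7 in acidosis and 35.6, 32.3 and 38.9 in lactosis. Acidosis and lactosis did not overlap, and the difference was 0.78 (SE 0.12, limma adjusted p = 0.00299). CCNE1, the cyclin E1 that drives entry into S phase, was at 12.8, 11.7 and 11.2 in acidosis and 18.9, 16.9 and 22.1 in lactosis, differing by 0.65 (SE 0.10, limma adjusted p = 0.00411). CLSPN, the adaptor that relays replication stress to the checkpoint kinase CHK1, was at 15.6, 13.5 and 13.9 in acidosis and 21.2, 22.1 and 21.5 in lactosis, differing by 0.56 (SE 0.076, limma adjusted p = 0.00203). MCM10, which helps to start the replicative helicase, was higher in lactosis by 0.44 (limma adjusted p = 0.0118), and ORC6, a subunit of the origin recognition complex, by 0.40 (limma adjusted p = 0.00942). POLE2, a subunit of the leading-strand polymerase, went the other way with 35, 38.4 and 36.4 in acidosis and 28.2, 28.8 and 30.1 in lactosis, -0.32 (SE 0.070, limma adjusted p = 0.0131). PCNA, the sliding clamp, was at 399, 396 and 417 in acidosis and 433, 408 and 416 in lactosis, and its difference of 0.05 (95% interval -0.10 to 0.21) was not called. CCND1, the cyclin D1 of the G1 phase, is in no list here and was picked after its values were seen; it had 107, 90.3 and 85.99 in acidosis and 164, 139.9 and 184 in lactosis and differed by 0.77 (limma adjusted p = 0.0038). Control libraries spread widely for these genes, and in the fit that includes them limma called 0 of the 17 members, 4 being higher in lactosis at an unadjusted p under 0.05, with adjusted p = 0.105 for CDC25A, 0.146 for CCNE1, 0.206 for CLSPN and 0.0529 for CCND1. Without acidosis replicate 2 the calls of MCM10 (adjusted p = 0.0649), ORC6 (0.0572) and POLE2 (0.075) were lost, and without lactosis replicate 1 those of MCM10 (0.0548) and POLE2 (0.0672).

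Ribosome biogenesis genes were higher in lactosis in 9 of 18 tested members. All 18 were higher than control in both treatments by the authors' deposited tables. By the limma test 0 were higher in acidosis (0 also at an unadjusted p under 0.05 and by limma-trend). The median difference was 0.28, against 0.05 for all genes and 0.13 for the genes higher than control in both treatments. Called higher in lactosis were 16.4% of all genes and 23.6% of that class. NIP7, a factor of pre-ribosomal RNA processing, had 61.1, 73.2 and 76.96 in control, 92.6, 84.2 and 84.1 in acidosis and 127, 126 and 142 in lactosis. No lactosis library overlapped acidosis, and the difference was 0.59 (SE 0.080, limma adjusted p = 0.00203). DKC1, the dyskerin that makes pseudouridine in ribosomal RNA and holds telomerase RNA, was at 222, 188 and 196 in acidosis and 295, 270.2 and 303 in lactosis and differed by 0.52 (SE 0.088, limma adjusted p = 0.0052). PNO1, needed for the small subunit, differed by 0.40 (limma adjusted p = 0.00715), LYAR, a nucleolar protein, by 0.37 (limma adjusted p = 0.00589), and RRP7A, a processing factor of the small subunit, by 0.34 (limma adjusted p = 0.00925). In the median-centred libraries 9 members were called toward lactosis and 1 toward acidosis. The fit with controls kept 2 members, and there NIP7 and DKC1 held while LYAR (0.089), PNO1 (0.122) and RRP7A (0.149) had adjusted p above 0.05. Of the 40 windows of 75 bases taken along each gene's longest transcript, 9 of NIP7 also occur in the overlapping gene COG8 and 8 of RRP7A in related or neighbouring genes.

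Of 15 tested translation factors and tRNA synthetases, 2 were higher in lactosis and 2 in acidosis, with a median difference of 0.15 and 10 members above 0. Called in these directions were 16.4% and 7.5% of all genes, and the counts lie near those shares. EIF2B1, a subunit of the exchange factor that recharges eIF2, was higher in lactosis by 0.32 (limma adjusted p = 0.0145), and EIF5B, which joins the ribosomal subunits, by 0.27 (limma adjusted p = 0.022). Both calls were lost in the fit with controls (adjusted p = 0.218 and 0.222) and without lactosis replicate 1 (0.0611 and 0.0755), acidosis replicate 2 (0.069 and 0.0866) or acidosis replicate 3 (0.0555 and 0.0759). EIF2B1 also lost it without lactosis replicate 3 (0.0548), and EIF5B without lactosis replicate 2 (0.0555), in median-centred libraries (0.148), under library weights (0.0632) and with the replicate block (0.0612). The neighbours DDX55 and REV1 hold 8 of 40 EIF2B1 windows and 6 of 40 EIF5B windows. EIF4A2, an RNA helicase of the cap-binding complex, was at 684, 605 and 616 in acidosis and 459.6, 441 and 474 in lactosis, -0.47 (SE 0.076, limma adjusted p = 0.00433). EIF4B, the cofactor of that helicase, was at 502, 429.7 and 404 in acidosis and 345, 300.03 and 359.7 in lactosis, -0.41 (SE 0.11, limma adjusted p = 0.027). EIF4A2 and EIF4B are listed lower than control in both treatments, and acidosis lay nearer to the control values of 698, 798 and 879 and 505, 598 and 581. EIF4B lost its call in the fit with controls (adjusted p = 0.0972) and without lactosis replicate 1 (0.0712), lactosis replicate 2 (0.0623) or acidosis replicate 2 (0.0813), and 10 of its 40 windows occur in pseudogene copies. EEF2, the elongation factor of translocation and one of the highest genes, had 1884, 1767 and 1650.3 in acidosis and 1578, 1377 and 1612 in lactosis; its difference of -0.22 (95% interval -0.42 to -0.01) was not called.

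Of 8 tested genes of serine, one-carbon and nucleotide synthesis, 4 were higher in lactosis and 0 in acidosis by the limma test (0 also at an unadjusted p under 0.05 and by limma-trend), with a median of 0.25. The share called higher in lactosis was 16.4% of all genes. It was 23.6% of those higher than control in both treatments, to which 7 of the 8 belong. MAT2A, which makes the methyl donor S-adenosylmethionine, had 87.6, 131 and 136 in control, 211, 173 and 165 in acidosis and 293, 291 and 353 in lactosis, and differed by 0.77 (SE 0.12, limma adjusted p = 0.00333). CTPS1, which makes CTP, differed by 0.47 (limma adjusted p = 0.0116), AMD1, the decarboxylase that starts polyamine synthesis from S-adenosylmethionine, by 0.37 (limma adjusted p = 0.0221), and UMPS, which makes UMP, by 0.33 (limma adjusted p = 0.0424). MAT2A and CTPS1 did not overlap between the treatments, and 8 of 40 MAT2A windows occur in other annotated transcripts. MAT2A kept its call in the fit with controls, whereas adjusted p was 0.0694 for CTPS1, 0.218 for AMD1 and 0.332 for UMPS. Without acidosis replicate 2 the calls of CTPS1 (0.0581), AMD1 (0.0999) and UMPS (0.164) were also lost, and without lactosis replicate 1 as well (0.0548, 0.0613 and 0.123). AMD1 and UMPS were lost too without lactosis replicate 3 (0.0759 and 0.128) and without acidosis replicate 3 (0.0736 and 0.106).

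Among 20 tested solute carriers, 5 were higher in lactosis and 1 in acidosis, near the shares of all genes (16.4% and 7.5%), with a median of 0.04 and 14 not called. The 1 in acidosis was SLC12A7, described below with the genes of opposite directions against control, which nearly fix a call. SLC5A6, the sodium-dependent carrier of biotin and pantothenate, was at 28.4, 23.5 and 23.1 in acidosis and 42.3, 37.7 and 43.8 in lactosis and differed by 0.71 (SE 0.10, limma adjusted p = 0.00246). SLC19A1, the reduced folate carrier, differed by 0.45 (limma adjusted p = 0.00942), SLC25A32, a mitochondrial folate and FAD carrier, by 0.38 (limma adjusted p = 0.0145), and SLC25A15, the mitochondrial ornithine carrier, by 0.57 (limma adjusted p = 0.0148). SLC5A6 kept its call in the fit with controls and without each library. Without acidosis replicate 2 adjusted p was 0.0538 for SLC19A1, 0.0677 for SLC25A32 and 0.0735 for SLC25A15, and in the fit with controls 0.145, 0.145 and 0.0789. SLC25A32 also lost its call without lactosis replicate 3 (0.0522) and acidosis replicate 3 (0.0505), and 38 of its 40 windows lie in other annotated transcripts, DCAF13 among them. In the median-centred libraries 5 carriers were called toward lactosis and 7 toward acidosis.

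Few genes of lactate and proton handling are in the compared set. Of 22 genes of lactate transport and sensing 1 was tested, SLC16A13, a monocarboxylate transporter family member, with 6.16, 4.23 and 3.74 in acidosis and 4.61, 4.53 and 6.29 in lactosis. Its groups overlapped, and the difference of 0.12 (95% interval -0.27 to 0.51) was not called. Of 42 genes of proton transport, carbonic anhydrases and acid sensing 2 were tested, and limma and limma-trend called 0 of them, with 0 at an unadjusted p under 0.05. ASIC1, an acid-sensing ion channel, was at 6.42, 6.21 and 5.53 in acidosis and 6.61, 5.97 and 5.95 in lactosis, a difference of 0.03 (95% interval -0.16 to 0.21), against 2.75, 4.26 and 4.84 in control. CA5B, a mitochondrial carbonic anhydrase, differed by -0.14 (95% interval -0.44 to 0.16). A p above the threshold does not show that these levels were alike. Of all genes 23.9% were called, so nothing is read from 0 calls among so few.

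Heat shock chaperones, the proteins that refold damaged proteins and are induced together by the transcription factor HSF1, were compared next, with the promoters of 2 members. The first is a called member and the second a member that was not called. Capitals mark each match to the motif GAANNTTCNNGAA on either strand, 3 inverted repeats of the heat shock element. The stretches are the 250 bases before the RefSeq start (GRCh38.p14), written 5′ to 3′ on the gene's strand, HSPA8 at chr11:123062137-123062386 and HSP90AA1 at chr14:102087045-102087294, both on the minus strand. They were printed because they hold the motif, and of the 2 HSP90AA1 promoter windows only 1 does.
HSPA8: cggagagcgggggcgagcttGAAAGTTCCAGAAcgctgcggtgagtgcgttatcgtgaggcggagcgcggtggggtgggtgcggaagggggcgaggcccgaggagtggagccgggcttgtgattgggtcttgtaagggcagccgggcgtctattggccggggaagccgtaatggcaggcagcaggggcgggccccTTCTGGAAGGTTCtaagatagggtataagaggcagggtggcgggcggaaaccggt
HSP90AA1: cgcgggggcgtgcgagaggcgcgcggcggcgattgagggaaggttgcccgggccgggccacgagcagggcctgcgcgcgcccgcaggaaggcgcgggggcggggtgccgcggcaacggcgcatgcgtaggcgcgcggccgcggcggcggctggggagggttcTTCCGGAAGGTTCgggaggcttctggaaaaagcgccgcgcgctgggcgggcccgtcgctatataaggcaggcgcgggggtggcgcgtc

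Of 21 tested chaperone genes, all higher than control in both treatments by the authors' deposited tables, 4 were higher in lactosis, 0 in acidosis by the limma test (0 also at an unadjusted p under 0.05 and by limma-trend), and 17 were not called, with a median of 0.05 that equals the median of all genes. Of all genes 16.4% were called higher in lactosis, and of the genes higher than control in both treatments 23.6%, and the 4 in 21 lie between those shares. Toward lactosis, however, 8 of the 21 had an unadjusted p under 0.05, and limma-trend called 8. Limma-trend called 243 of all 1173 genes that way. The reading of 4 in 21 therefore holds for the limma test only. In median-centred libraries the median was -0.06, with 4 members called toward lactosis and 3 toward acidosis. HSPA8, the constitutive HSC70, had 516, 840.1 and 1120.02 in control, 1736, 1639 and 1649 in acidosis and 2347, 2184 and 2558 in lactosis. All lactosis libraries lay above acidosis, and the difference was 0.49 (SE 0.080, limma adjusted p = 0.00418). DNAJB1, the HSP40 that delivers clients to HSP70, was at 119, 112 and 109 in acidosis and 171, 163 and 176 in lactosis and differed by 0.58 (SE 0.071, limma adjusted p = 0.0015). The inducible HSP70 gene HSPA1A was at 377, 388 and 372 in acidosis and 543, 485 and 521 in lactosis (0.44 (limma adjusted p = 0.00411)), and its near-identical neighbour HSPA1B differed by 0.57 (limma adjusted p = 0.00195). The 2 share 28 of 40 windows of 75 bases, so reads may be split between them and neither value stands alone. HSP90AA1, the inducible cytosolic HSP90, was at 1682, 1543 and 1634 in acidosis and 1464, 1459 and 1488 in lactosis, and the difference of -0.14 (95% interval -0.29 to 0.02) was not called. HSP90AB1, its constitutive relative, was at 2728, 2507 and 2479 and 2583, 2356 and 2697, a difference of -0.02 (95% interval -0.20 to 0.17). DNAJA1, another HSP40, differed by 0.18 (95% interval 0.00 to 0.35), also without a call. DNAJB1 alone of the 4 kept its call in the fit with controls, where adjusted p was 0.204 for HSPA8, 0.262 for HSPA1A and 0.082 for HSPA1B.

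The printed element was found in the 250 bases before the start of 1 of the 4 called members, HSPA8, and of 3 of the 15 uncalled members with a promoter entry, HSP90AA1 among them. Over all 35116 promoter windows of that length, 155 (0.441%) hold it. The counts are of genes, some with several windows, while the share is of windows, so they are not compared. A match is a description of these letters and not a binding site. Only exact matches to the motif were counted, so the lack of a match does not show that a gene lacks a heat shock element.

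Of 11 tested ATF4 and amino acid stress targets, all lower than control in both treatments by the authors' deposited tables, 4 were higher in acidosis and 1 in lactosis, with a median of -0.15. Of all genes 7.5% were called higher in acidosis, and of those lower than control in both treatments 17.8%. DDIT3, the transcription factor CHOP of the integrated stress response (chr12:57516588-57521737), was at 678, 481 and 203 in control, 34.95, 29.2 and 30.4 in acidosis and 16.6, 12.95 and 12.5 in lactosis. Acidosis and lactosis did not overlap, and the difference was -1.12 (SE 0.12, limma adjusted p = 0.000905). KLHL24, a ubiquitin ligase adaptor, was at 10.4, 7.16 and 6.21 in acidosis and 3.48, 2.5 and 3.86 in lactosis, -1.04 (SE 0.18, limma adjusted p = 0.00566). DDIT4, the inhibitor of mTORC1 also called REDD1, was at 1171, 1017 and 1023 in acidosis and 772, 624 and 652 in lactosis, -0.65 (SE 0.10, limma adjusted p = 0.00375). DDIT4 is the gene with the highest level among those called toward acidosis that are named here, and its control values were 1503, 1606 and 1578. ATF3, a stress-induced repressor, was at 5.29, 4.88 and 5.48 in acidosis and 4.06, 2.4 and 4 in lactosis, -0.49 (SE 0.15, limma adjusted p = 0.0474). Its call was lost in the fit with controls (adjusted p = 0.112), and without acidosis replicate 1 (0.071), 2 (0.109) or 3 (0.104), or lactosis replicate 1 (0.0548). Reads of DDIT3 and DDIT4 overlap other annotated transcripts, at 10 and 17 of 40 windows, and the library kit does not mark strand.

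The other 6 ATF4 targets were not called. CHAC1, which degrades glutathione, was at 51.6, 78.6 and 54.5 in control, 3.59, 4.29 and 4.05 in acidosis and 3.71, 2.99 and 3.81 in lactosis. Its treated groups overlapped, and the difference of -0.15 had a 95% interval of -0.37 to 0.08. INHBE, an inhibin subunit gene, was at 0.21, 0.1 and 0.36 in acidosis and 0.33, 0.08 and 0.2 in lactosis (-0.02, 95% interval -0.27 to 0.22), and SESN2, an amino acid sensor upstream of mTORC1, at 8.89, 6.53 and 7.11 and 6.84, 4.77 and 5.55 (-0.34, 95% interval -0.66 to -0.03). SESN2 was called toward acidosis in median-centred libraries, under library weights and with the replicate block. ADM2, a peptide hormone gene, differed by -0.09 (95% interval -0.28 to 0.10), and INHBE and ADM2 lie so near the low end of the scale that a difference could not be read. SLC7A11, the cystine importer, was the member higher in lactosis, with 43.4, 49.3 and 27.7 in control, 11.8, 7.5 and 7.3 in acidosis and 13.4, 12.5 and 15.2 in lactosis, a difference of 0.60 (SE 0.17, limma adjusted p = 0.0338). Its call was lost in the fit with controls (adjusted p = 0.108), without lactosis replicate 1 (0.0886) or 3 (0.0991) and without acidosis replicate 2 (0.133) or 3 (0.085). Of 6 tested NRF2 targets and glutathione genes 3 were higher in lactosis and 0 in acidosis by the limma test, at an unadjusted p under 0.05 or by limma-trend. The share of all genes called higher in lactosis was 16.4%. The 3 were SLC7A11, SRXN1, which repairs peroxiredoxins (0.34 (limma adjusted p = 0.0359)), and CHAC2, a relative of CHAC1 (0.29 (limma adjusted p = 0.0417)). SRXN1 shares 33 of 40 windows with a second annotated transcript, and neither SRXN1 (0.168) nor CHAC2 (0.374) kept its call in the fit with controls or without acidosis replicate 2 (adjusted p = 0.146 and 0.169), lactosis replicate 1 (0.0992 and 0.0782) or lactosis replicate 3 (0.107 and 0.129). SRXN1 also lost it without acidosis replicate 3 (0.0835) and CHAC2 without lactosis replicate 2 (0.0762), with the replicate block (0.0572), under library weights (0.0567), in median-centred libraries (0.123) and at a pseudocount of 0.1 (0.0531).

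Single genes higher in acidosis included HBP1 and PIK3IP1. HBP1, a repressor of cell cycle genes (chr7:107168961-107202529), had 24.95, 29.1 and 29.4 in control, 26.2, 19.4 and 19.7 in acidosis and 9.99, 9.41 and 10.5 in lactosis. The lactosis values lay below all control and acidosis values, and the difference was -1.04 (SE 0.12, limma adjusted p = 0.0011), while 13 of its 40 windows also occur in the overlapping gene COG5. PIK3IP1, an inhibitor of PI3 kinase, was at 4.25, 4.04 and 4.3 in acidosis and 2.25, 1.93 and 1.57 in lactosis, -0.84 (SE 0.094, limma adjusted p = 0.0011). Its list has 18 tested kinase and phosphatase regulators. Of these 18, 3 were higher in acidosis and 1 in lactosis, beside 7.5% and 16.4% of all genes, and 14 were not called. Of 5 tested p53 targets and cell cycle inhibitors 2 were higher in acidosis and 0 in lactosis by the limma test, at an unadjusted p under 0.05 or by limma-trend, with a median of -0.31: TP53INP1, a p53 cofactor in stress (-0.75 (limma adjusted p = 0.00247)), and CCNG2, a cyclin that holds cells back (-0.61 (limma adjusted p = 0.00942)). Both had 3 acidosis values above 3 lactosis values, and the other 3 members were not called. Called higher in acidosis were 7.5% of all genes and 17.8% of those lower than control in both treatments. ULK1, the kinase that starts autophagy, differed by -0.49 (limma adjusted p = 0.0309) and was the called member of 3 tested autophagy genes. The ULK1 call was lost in the fit with controls (adjusted p = 0.0696) and without acidosis replicate 1 (0.0541) or 2 (0.0947) or lactosis replicate 2 (0.0623) or 3 (0.0674). VEGFA, the vascular growth factor, was at 82.6, 76.2 and 73.2 in acidosis and 61.6, 58.02 and 65.01 in lactosis, -0.32 (SE 0.079, limma adjusted p = 0.0204); adjusted p was 0.218 with controls, 0.0776 without acidosis replicate 2, 0.0755 without lactosis replicate 1 and 0.0522 without lactosis replicate 2. NOTCH3, a receptor of the Notch pathway, differed by -0.64 (limma adjusted p = 0.0198) and lost its call without acidosis replicate 2 (adjusted p = 0.0661).

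**Figure D4:**
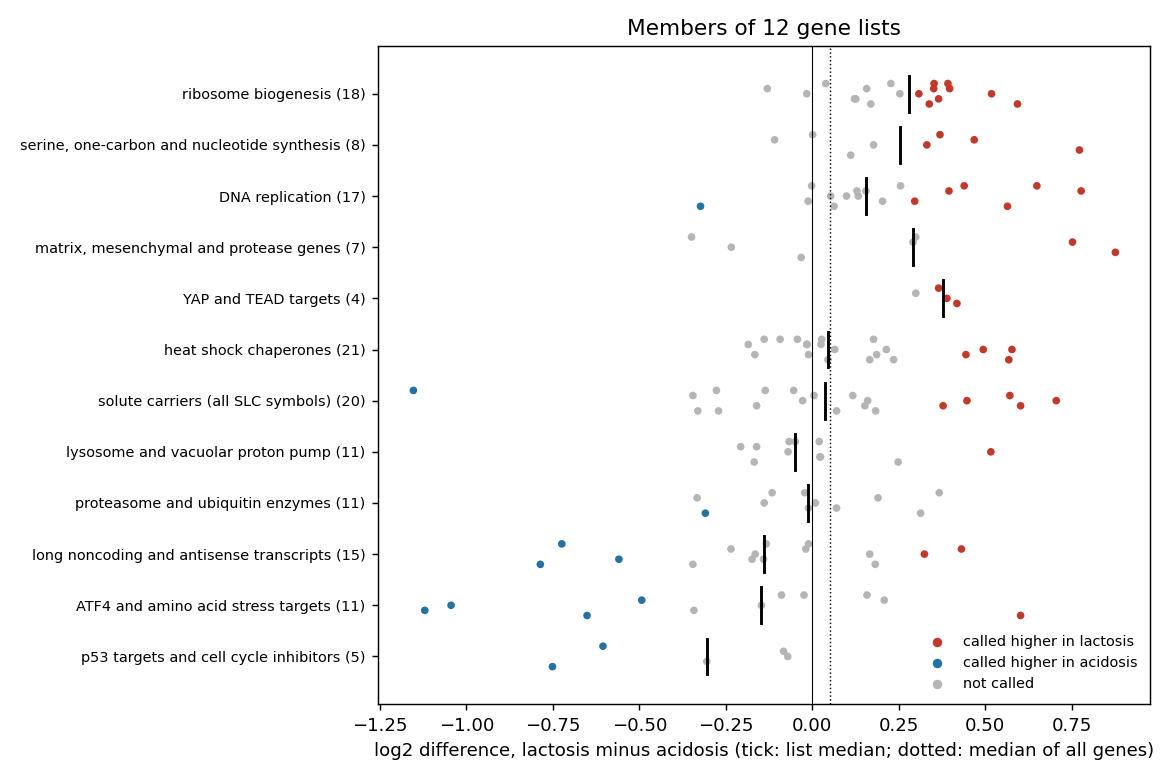
Log2 differences, lactosis minus acidosis, of the tested members of 12 gene lists (number in brackets), 1 point a gene, with called genes in colour, a tick at each list's median and a dotted line at the median of all genes, 0.05. Ribosome biogenesis has its median at 0.28 with 9 red points, whereas the ATF4 list has its median at -0.15 with 4 blue points and 1 red.

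The largest differences toward acidosis were in genes of varied function. RCSD1, a regulator of actin capping (chr1:167630093-167706249), had 29.5, 47.5 and 47.4 in control, 30.8, 24.3 and 22.02 in acidosis and 5.86, 5.33 and 5.49 in lactosis. Acidosis overlapped the control range and lactosis lay far below it, with a difference of -2.01 (SE 0.12, limma adjusted p = 5.74e-05). CERS4, a ceramide synthase (chr19:8206736-8262421), was at 9.06, 10.04 and 8.88 in acidosis and 3.04, 2.44 and 2.07 in lactosis, -1.56 (SE 0.11, limma adjusted p = 9.99e-05). NRIP1, a corepressor of nuclear receptors, was at 14.9, 11.5 and 9.59 in acidosis and 4.93, 3.86 and 5.96 in lactosis, -1.13 (SE 0.17, limma adjusted p = 0.00333). CERS4 and NRIP1 were again nearer to control in acidosis, and the lactic acidosis values of NRIP1, 8.87, 10.1 and 8.21, lay above all lactosis libraries. CEL, a bile salt-activated lipase, differed by -0.97 (limma adjusted p = 0.000905), with 9 of 40 windows shared with its pseudogene CELP. LDLRAD1, a membrane protein with LDL receptor repeats, differed by -1.10 (limma adjusted p = 0.0061), and NEURL1B, a ubiquitin ligase of Notch ligands, by -0.95 (limma adjusted p = 0.00324).

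TXNIP and ARRDC4 are related arrestins that block glucose uptake and are induced by the glucose sensor MondoA at paired carbohydrate response elements. They are the 2 tested members of that list, and their promoters are shown because 1 of them was called and the other was not. Capitals mark CACGNNNNNNNCACG in TXNIP and the E-box CACGTG in ARRDC4, each searched on both strands, in the 250 bases before the RefSeq start (GRCh38.p14). A different motif is marked in each gene, and each stretch was printed because it holds its motif. The ARRDC4 stretch holds no match to the motif marked in TXNIP. The TXNIP stretch is chr1:145996580-145996829 on the minus strand, 1 of its 2 RefSeq promoter windows, and the ARRDC4 stretch is chr15:97960453-97960702 on the plus strand. Of all 35116 windows of that length, 183 (0.521%) hold the first motif and 2228 (6.34%) the second.
TXNIP: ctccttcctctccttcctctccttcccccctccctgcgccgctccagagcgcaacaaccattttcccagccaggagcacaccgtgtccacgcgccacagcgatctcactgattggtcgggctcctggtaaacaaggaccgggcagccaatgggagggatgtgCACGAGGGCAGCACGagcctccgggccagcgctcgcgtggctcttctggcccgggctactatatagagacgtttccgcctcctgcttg
ARRDC4: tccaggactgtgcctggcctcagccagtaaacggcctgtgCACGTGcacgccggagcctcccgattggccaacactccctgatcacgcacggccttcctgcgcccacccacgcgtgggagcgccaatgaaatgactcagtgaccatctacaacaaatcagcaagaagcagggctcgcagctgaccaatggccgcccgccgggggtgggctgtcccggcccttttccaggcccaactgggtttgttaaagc

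TXNIP is listed higher than control in both treatments by the authors' deposited tables and was higher in acidosis than in lactosis. Its values were 2.42, 3.76 and 3.97 in control, 21.6, 19.96 and 19.6 in acidosis and 12.5, 9.45 and 12.2 in lactosis. The 3 groups did not overlap, and lactosis minus acidosis was -0.80 (SE 0.11, limma adjusted p = 0.00203). Lactic acidosis fell between the treatments with 14.7, 15.9 and 15.1. ARRDC4 was at 1.11, 1.12 and 0.91 in control, 3.19, 2.9 and 2.43 in acidosis and 2.9, 2.73 and 4.33 in lactosis. Its treated groups overlapped, and the difference of 0.16 (95% interval -0.17 to 0.49) was not called. The 95% interval for TXNIP was -1.04 to -0.55, and the difference between the 2 genes was not tested.

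Genes of sugar and fat metabolism differed in both directions. PFKFB2, which makes and removes the activator of phosphofructokinase and so sets glycolytic flux (chr1:207034366-207081024), was at 4.58, 7.16 and 7.58 in control, 5.14, 3.87 and 3.45 in acidosis and 10.1, 8.65 and 11.97 in lactosis. Every lactosis value was above the control range and acidosis reached below it, with a difference of 1.13 (SE 0.15, limma adjusted p = 0.00179). RPIA, an enzyme of the pentose phosphate pathway, differed by 0.45 (limma adjusted p = 0.00364). So 2 of 3 tested glycolysis and pentose phosphate genes were higher in lactosis, beside 16.4% of all genes. PFKFB2 is 1 of the 14 genes with opposite directions against control, which nearly fix a call. Nothing is therefore read from this count. PDP1, the phosphatase that activates pyruvate dehydrogenase, was at 55.7, 44.5 and 40.7 in acidosis and 30.8, 26.4 and 33.6 in lactosis, -0.61 (SE 0.13, limma adjusted p = 0.0128). PPARGC1A, the coactivator of mitochondrial genes, was at 2.79, 4.55 and 3.03 in control, 0.74, 0.64 and 0.49 in acidosis and 0.25, 0.15 and 0.23 in lactosis, -0.42 (SE 0.081, limma adjusted p = 0.00842). SCD, the stearoyl-CoA desaturase, was at 445, 687 and 716 in control, 347, 265 and 230.5 in acidosis and 409, 346 and 473 in lactosis, 0.55 (SE 0.17, limma adjusted p = 0.0442), with 1 acidosis library above the lowest lactosis library. Of 4 tested cholesterol synthesis genes limma called 0, beside 23.9% of all genes, with 1 toward each treatment at an unadjusted p under 0.05 and 1 called toward lactosis by limma-trend. INSIG1, the brake on sterol synthesis, differed by -0.14 (95% interval -0.30 to 0.02). RPIA (0.0708), PPARGC1A (0.123) and SCD (0.127) lost their calls in the fit with controls, PPARGC1A also at a pseudocount of 5 (0.184), and SCD also without lactosis replicate 1 (0.119) or 3 (0.13) or acidosis replicate 2 (0.146) or 3 (0.106).

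In 14 genes the authors' deposited tables give opposite directions against control, and 13 of them were called here, 7 higher in lactosis and 6 in acidosis, beside 23.9% of all genes. Opposite directions in the same library values nearly fix a call between the treatments, so nothing is read from that count, and the values are a description. APOL3 and APOL1, neighbouring lipid-binding genes of innate immunity (chr22:36140330-36166177 and chr22:36253010-36267530), were higher than control in acidosis and lower in lactosis. APOL3 had 5.18, 3.78 and 5.95 in control, 9.92, 10.6 and 8.09 in acidosis and 2.48, 1.89 and 1.99 in lactosis. No 2 of these groups overlapped, and lactosis minus acidosis was -1.75 (SE 0.11, limma adjusted p = 8.95e-05). APOL1 had 6.66, 6.39 and 7.18, 10.8, 10.04 and 9.28 and 4.63, 4.51 and 5.63 in the same order of groups, again with no overlap, and differed by -0.90 (SE 0.094, limma adjusted p = 0.000905). GBP1, an interferon-induced GTPase, had 15.3, 21.6 and 25.6 in control, 29.02, 24.8 and 23.5 in acidosis and 15.4, 14.8 and 16.5 in lactosis and differed by -0.69 (SE 0.092, limma adjusted p = 0.002); it was the 1 tested gene of 49 interferon-stimulated genes. S100A9, a calcium-binding alarmin, was at 44.4, 38.5 and 36.4 in acidosis and 12.7, 20.96 and 14.1 in lactosis, -1.30 (SE 0.17, limma adjusted p = 0.00188). For GBP1 and S100A9 the control libraries reached into the acidosis range. SLC12A7, a potassium chloride cotransporter, was at 4.62, 5.22 and 6.15 in control, 9.1, 6.37 and 6.62 in acidosis and 3.04, 2.19 and 3 in lactosis, -1.15 (SE 0.14, limma adjusted p = 0.0015). CDKN3, a phosphatase of cyclin-dependent kinases, was at 128, 147 and 139 in acidosis and 88.8, 84.6 and 89.6 in lactosis, -0.65 (SE 0.075, limma adjusted p = 0.00121).

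The opposite genes higher in lactosis were led by a histone gene. HIST1H2BK, a histone H2B gene (chr6:27146418-27146798), had 223, 263 and 292 in control, 184, 199 and 193 in acidosis and 506, 476 and 476 in lactosis. The 3 groups were apart, and the difference was 1.34 (SE 0.069, limma adjusted p = 3.12e-05). Its lactic acidosis values of 169.6, 184 and 179.9 lay beside those of acidosis and below all those of control and lactosis. Histone messages are mostly without poly(A) tails while these libraries were poly(A)-selected, 21 of its 40 windows occur in other H2B genes, and the part of either was not tested. WDR66, a WD-repeat protein of cilia, was at 8.15, 7.27 and 7.54 in acidosis and 17.8, 16.8 and 18.5 in lactosis, 1.11 (SE 0.074, limma adjusted p = 9.16e-05), with the control values of 8.68, 14.1 and 14.3 between them. RRAD, a small GTPase of the RGK family, was at 34.2, 36.8 and 41.1 in acidosis and 59.2, 67.1 and 64.5 in lactosis, 0.75 (SE 0.089, limma adjusted p = 0.00126). MTRNR2L8, a nuclear copy of mitochondrial ribosomal RNA, differed by 0.95 (limma adjusted p = 0.0079); 4 of its windows occur in MT-RNR2 or another copy, so its reads may be mitochondrial. TIAL1, an RNA-binding splicing regulator, differed by 0.41 (limma adjusted p = 0.00817). It lost its call in the fit with controls (adjusted p = 0.0777). CTSB, the lysosomal protease cathepsin B, was at 139, 132 and 130.1 in acidosis and 115, 109 and 123.3 in lactosis, and its difference of -0.21 (95% interval -0.38 to -0.04) was not called.

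**Figure D5:**
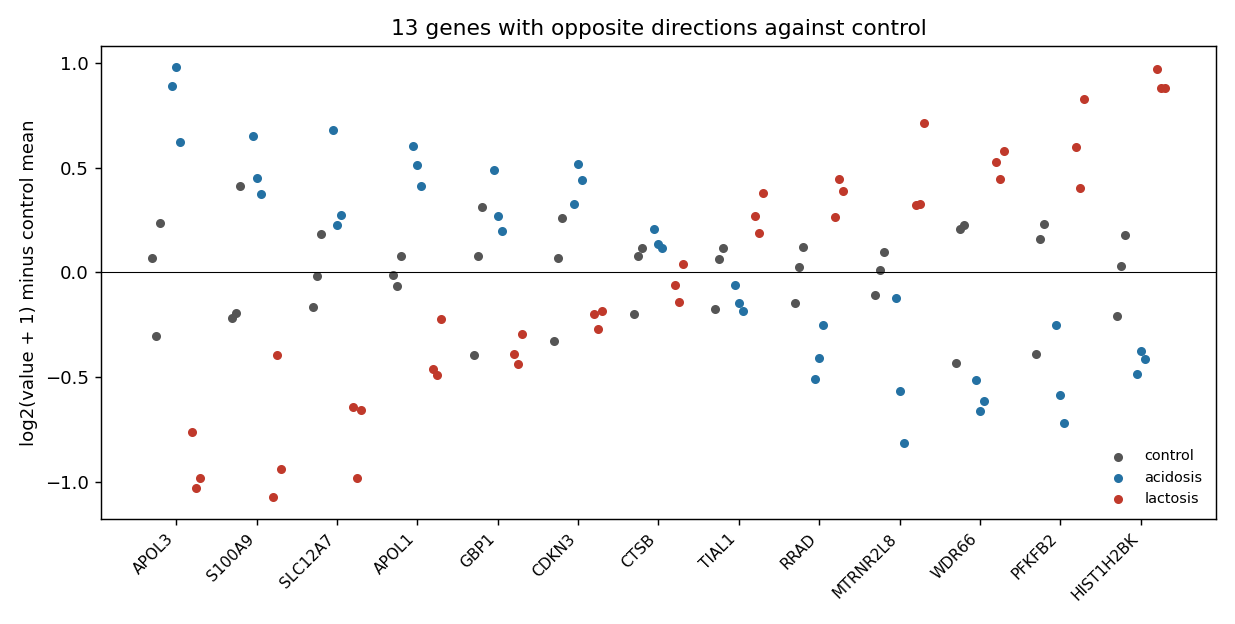
Values of 13 of the 14 genes with opposite directions against control as log2(value + 1) minus the control mean, with 3 grey control, 3 blue acidosis and 3 red lactosis points a gene. APOL3, at the left, has its acidosis points near 1 and its lactosis points near -1, and HIST1H2BK, at the right, has the reverse order.

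Several lists had 0 or 1 called members. Of all genes 23.9% were called, 16.4% higher in lactosis and 7.5% in acidosis. These lists have 3 to 11 tested members, so nothing is read from the counts. Of 11 lysosome and vacuolar proton pump genes 1 was called, MCOLN3, a lysosomal cation channel, with 23.5, 25.04 and 24.8 in control, 14.5, 12.6 and 12.2 in acidosis and 18.6, 17.7 and 21.1 in lactosis (0.52 (SE 0.095, limma adjusted p = 0.00685)). Of 11 proteasome and ubiquitin genes 1 was called, the ubiquitin-conjugating enzyme UBE2T (-0.31 (limma adjusted p = 0.0319)), which lost its call in the fit with controls (adjusted p = 0.351) and without any 1 of 5 libraries, acidosis replicate 1 being the exception (adjusted p from 0.0543 to 0.124), as well as under library weights (0.0669) and with the replicate block (0.0542). Of 3 antigen presentation genes and 4 aldehyde dehydrogenase and retinoic acid genes limma called 0, with 1 of each list toward acidosis at an unadjusted p under 0.05, and limma-trend called 1 of the second list. ALDH1A3, which makes retinoic acid, was at 88.3, 178 and 249.8 in control, 414, 365 and 355 in acidosis and 441, 396 and 477 in lactosis, a difference of 0.21 (95% interval -0.01 to 0.43), and reached 807, 855 and 801 in lactic acidosis. CYP26A1, which degrades retinoic acid, was listed at 0.22, 0.9 and 0.54 in acidosis and 0.05, 0 and 0.23 in lactosis, a difference of -0.49 (95% interval -0.85 to -0.13) that did not pass the test. CYP26A1 was called toward acidosis in median-centred libraries, under library weights, by limma-trend, with the replicate block and without acidosis replicate 1 (adjusted p from 0.00759 to 0.0351), and 12 of its 40 windows occur in another annotated transcript.

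Of 4 YAP and TEAD targets 3 were higher in lactosis, beside 16.4% of all genes, and the list median was 0.38. The 3 were RND3, a GTPase that opposes RhoA (0.42 (limma adjusted p = 0.00725)), FJX1, a secreted Four-jointed homologue (0.39 (limma adjusted p = 0.00447)), and AMOTL2, an angiomotin that binds YAP (0.37 (limma adjusted p = 0.0478)). FJX1 is listed higher than control in both treatments. RND3 and AMOTL2 are listed lower than control in both and lay nearer to control in lactosis. RND3 was at 48.1, 56.7 and 53 in control, 33.9, 32.1 and 31.15 in acidosis and 41.9, 41.8 and 47.2 in lactosis. AMOTL2 was at 80.9, 96.1 and 72.7 in control, 42.4, 36.8 and 34 in acidosis and 47, 44.3 and 55.45 in lactosis. In the limma fit with controls 0 of the 4 were called, 3 having an unadjusted p under 0.05, and AMOTL2 also lost its call without lactosis replicate 1 (adjusted p = 0.104) or 3 (0.137) or acidosis replicate 2 (0.153) or 3 (0.133), with the replicate block (0.0576) and at a pseudocount of 0.1 (0.0659).

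Of 15 long noncoding and antisense transcripts 2 were higher in lactosis and 3 in acidosis, with a median of -0.14. Called in these directions were 16.4% and 7.5% of all genes. Among genes lower than control in both treatments the shares were 2.6% and 17.8%. MIR100HG, the host transcript of miR-100, was at 0.3, 0.66 and 0.68 in control, 1.25, 1.88 and 1.59 in acidosis and 2.35, 2.4 and 2.61 in lactosis, 0.43 (SE 0.098, limma adjusted p = 0.0156), and at 5.39, 5.1 and 5.03 in lactic acidosis. Its call was lost in the fit with controls (adjusted p = 0.0918), in median-centred libraries (0.0626), at a pseudocount of 5 (0.0541) and without lactosis replicate 1 (0.0514) or 3 (0.0548). OSER1-AS1 was at 5.44, 4.88 and 5.63 in acidosis and 3.11, 2.84 and 2.53 in lactosis, -0.72 (SE 0.085, limma adjusted p = 0.00121), and NRSN2-AS1 differed by -0.56 (limma adjusted p = 0.00756). Without strand, reads of an antisense gene and of its partner cannot be told apart.

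Several of the highest genes did not differ detectably. CFL1, the actin-severing cofilin, was at 1624, 1712 and 1723 in acidosis and 1711, 1649 and 1612 in lactosis, with a difference of -0.03 and a 95% interval of -0.18 to 0.13. TUBB4B, a beta tubulin, differed by 0.06 (95% interval -0.10 to 0.22) and H2AFZ, the histone variant H2A.Z, by 0.09 (95% interval -0.07 to 0.25). FIBIN and PRPH, which are far below control in both treatments by the authors' deposited tables, were near the low end of the scale in both, with differences of -0.04 and 0.03.

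The lactic acidosis libraries, with lactate in acid medium, were read beside the called genes without a test. Of the 192 genes higher in lactosis, 186 are also in the lactic acidosis table, and in 168 of these (90.3%) the lactic acidosis mean was nearer to lactosis than to acidosis. In 161 of the 186 all lactic acidosis values were above all acidosis values. They were above all lactosis values in 61 and below all lactosis values in 31. Of the 88 genes higher in acidosis, 80 are in that table, and in 58 (72.5%) the lactic acidosis mean was nearer to lactosis. In 54 of the 80 all lactic acidosis values were below all acidosis values. They were above all lactosis values in 27 and below all lactosis values in 11. Both sets were chosen by their lactosis and acidosis values. The shares of such non-overlap over all genes were not computed, so nothing is read from these counts. Over all 1042 genes of that table among the 1173, 730 (70.1%) were nearer to lactosis. KLHL24 and PIK3IP1 stood at 2.28, 3.01 and 2.51 and at 1.62, 1 and 1.23 in lactic acidosis, below every acidosis library. PDP1 stood at 40.2, 44.7 and 38.5, above every lactosis library.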

How the data were processed

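RNA of KKU-213A cells was poly(A)-selected and sequenced as 75 nt single-end reads, per the labels' protocols. STAR and hg38 are named in the submitters' processing notes; the counting program is not given in the sources used here. The authors deposited 1 table for each treatment against control. The authors give posterior probabilities of equal or different expression, under column names of EBSeq. The fold changes the authors deposited are a ratio of control over treated, turned round here. The per-library values the authors deposited are a length-scaled signal, and their group means are size-factor normalized. Every listed gene has a probability of equal expression of at most 0.05.

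The 1173 genes in both tables were compared between 3 lactosis and 3 acidosis libraries by limma (version 3.58.1, R version 4.3.3), after a log2 transform with 1 added and without a filter. Intervals are 95% intervals from that fit, with no adjustment. On data simulated for this comparison with 200 of 1173 genes changed, the test recovered 85% at a log2 change of 0.5 and 97.5% at 1, and 7.1% and 2.5% of its calls were of unchanged genes. The simulated noise was independent between genes and libraries, and the changes had random signs. Shifts of a whole library, on which the real calls depend, are therefore not covered by these rates. Changes under 0.5 were not simulated, while the called genes had a median size of 0.43. Alternatives were pseudocounts of 0.1 and 5, a filter at a mean of 1, median centring, library weights fitted to the authors' deposited group means, a fit of 9 libraries with the controls, limma-trend, a replicate block, and leaving out each library.

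Members, gene lists and tests were chosen with earlier results of these data known. Named genes were the 12 largest non-overlapping called differences in each direction (higher group mean at least 1), up to 5 called members a list, 8 genes with opposite directions, 6 uncalled genes with the highest level, 6 with the largest change against control, and a fixed set of genes of interest; 15 genes that the rule named are left out, some of them not reported here, and 12 were added after their values were seen (ASIC1, CA5B, CCND1, CDKN3, CTSB, DNAJA1, PCNA, POLE2, RRAD, SESN2, SLC16A13 and TIAL1). Positions are from GENCODE 29, which matched 1122 of the 1173 symbols, and promoters from RefSeq.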

Additional observations from a re-analysis of the deposited data

Results flagged for a closer look

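In 7 genes every acidosis library lay on one side of the control libraries and every lactosis library on the other, so that the effects against the shared controls ran in opposite directions; the difference between the treatments is the limma difference, lactosis minus acidosis. It was -1.75 for APOL3, -1.15 for SLC12A7 and -0.9 for APOL1, and 1.33 for HIST1H2BK, 1.11 for WDR66, 0.95 for MTRNR2L8 and 0.75 for RRAD. All 7 belong to the 14 genes listed in opposite directions, which were picked by these same values. Nothing is read from their number, and the values are a description.

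In genes outside the comparison, lactosis replicate 2 held muscle transcripts above the control level. ACTA1, skeletal muscle actin, was at 28.35 there, against at most 1.03 in the controls and 0.47 and 0.35 in the other lactosis libraries. CKM, muscle creatine kinase, was at 8.29, against at most 0.14 in the controls and 0 and 0.1 in the other lactosis libraries. The acidosis table lists neither gene.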

How the results depend on the processing

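Direction counts depended most on scaling and on the controls. Median centring gave 229 genes higher in acidosis, 49 of the genes higher than control in both and 173 of those lower in both; library weights gave 144, 12 and 125; limma-trend gave 11 of the genes higher in both toward acidosis. The 9-library fit gave 85 calls, 41 toward lactosis and 44 toward acidosis; of the genes higher in both it called 32 toward lactosis and 1 toward acidosis, and of those lower in both 3 and 37. At least 2-fold were 31 genes at a pseudocount of 0.1 and 7 at 5, where the scale itself sets the size of low genes; at 0.1, 7 of the genes lower in both were toward lactosis. Leaving out 1 library gave 131 to 335 calls, 84 to 260 toward lactosis, 47 to 81 toward acidosis and 17 to 21 of at least 2-fold; of the genes higher in both 73 to 230 toward lactosis and 2 to 7 toward acidosis, and of those lower in both 4 to 23 and 39 to 71. The cause was not tested. The other planned settings kept each count within 1.5 times.

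Of 85 called genes named in the text, 46 kept the call with 9 libraries, 61 without any 1 library and 45 under every setting, and none changed sign. At a pseudocount of 0.1 the calls of ATF3, SCD, SLC7A11, TGFA and UMPS were lost too (adjusted p from 0.0526 to 0.0726), and median centring ended that of ORC6 (0.0541). Of the uncalled, PLAU not counted, 7 gained a call under some setting: CYP26A1, SESN2, CTSB, EEF2 and HSP90AA1 toward acidosis, the last only under median centring, and ALDH1A3 (library weights) and DNAJA1 (limma-trend) toward lactosis. Uncalled genes near 0 changed sign. Median centring gave -0.081 for ASIC1, -0.018 for H2AFZ, -0.054 for PCNA, -0.081 for PRPH and -0.045 for TUBB4B. Without 1 library the difference ran from -0.005 to 0.253 for ARRDC4, from -0.029 to 0.063 for ASIC1, from -0.102 to 0.015 for FIBIN, from -0.058 to 0.039 for HSP90AB1, from -0.098 to 0.056 for INHBE, from -0.006 to 0.072 for PRPH and from -0.013 to 0.291 for SLC16A13.

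With the replicate number as a block (replicate block), 240 genes were called, 157 toward lactosis and 83 toward acidosis. Deviations of same-numbered libraries correlated at 0.077, 0.21 and -0.387, and not every library correlated best with its own number, so the numbers were not taken as pairs. Depth is unknown; with 3 libraries a group, differences under about 0.22 were not called.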
